A study of Rattus norvegicus with 102 samples.

Results

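RNA of hippocampal area CA1 was compared with RNA of the dentate gyrus (DG) in 34 male rats. Their strain was Fischer 344, spelled Fisher 344 in the labels. The members were all libraries labelled CA1 and all labelled DG, 34 of each, which made 68 of the 102 libraries of the series, and each rat gave 1 library of each kind. The remaining libraries came from CA3 and served for the common estimate of the spread and for levels set beside those of CA1 and DG. There were 10 young rats, aged 5 to 6 months, and 24 aged rats of 17 to 22 months, which had been classed in a water maze, a test of memory for place, as unimpaired (n = 12) or impaired (n = 12). Ages and maze classes were pooled unless stated. All 34 rats had been trained in the maze, and no untrained group was analysed here. By the study's methods, tissue was taken weeks after maze testing, from rats briefly anaesthetised with isoflurane and decapitated. In the methods of the study the subfields were cut by hand from 1 hippocampus of each rat, with the subiculum cut away and CA2 not collected apart, so a piece holds all cells of its region and may hold tissue of its neighbours. In whole tissue, fewer cells of a type and less RNA per cell cannot be told apart.

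CA1 and DG stand at opposite ends of the hippocampal circuit. Granule cells of the DG receive input from the entorhinal cortex and send unmyelinated mossy fibres to CA3, whose pyramidal cells project in turn to the pyramidal cells of CA1. CA1 is the main output of the hippocampus proper and lies beside the alveus, a sheet of myelinated axons. The DG goes on making granule cells in adult life. The markers set for the comparison were Wfs1 (wolframin, a membrane protein of the endoplasmic reticulum) and Gpr161 (an orphan receptor of the primary cilium) for CA1, and C1ql2 (a secreted organiser of mossy fibre synapses) and Bdnf (brain-derived neurotrophic factor) for DG.

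Values are normalised read counts of the Illumina table, that is, gene counts divided by a size factor per library, and errors of levels are SD with n = 34 unless stated. Illumina libraries held 5.50 to 42.3 M reads in CA1 and 5.31 to 41.5 M in DG, with medians of 11.1 M and 11.5 M. The Ion Proton table, made from the same RNA samples with another instrument, held 4.47 to 21.4 M reads per library. A further table labelled WT, for which the sources used here give no library type, held 3.54 to 17.8 M. Log2 changes are CA1 minus DG on the log2(value + 1) scale with their SE, and positive values are higher in CA1.

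Before the comparison, each library was placed by 3 scores from marker genes of CA1 pyramidal, dentate granule and CA2/CA3 pyramidal cells. In both poly-A tables, 2 CA1 libraries and 3 DG libraries lay nearer to the middle of another subfield than to that of their own label. They were the CA1 libraries of aged unimpaired rats R9782 and R9869 and the DG libraries of aged unimpaired rats R2232 and R9865 and aged impaired rat R9781. Of these, the DG libraries of rats R9781 and R9865 and the CA1 library of rat R9869 did so in all 3 tables. The library of rat R9869 labelled CA1 held 1348 Wfs1 reads and that labelled DG 5771, against the direction of the labels. In the same order they held 599 and 1667 C1ql2 reads and 297 and 654 Bdnf reads, in the direction of the labels, and the library labelled DG lay nearest DG in all 3 tables. By the same measure 5 CA3 libraries stood nearer to CA1 or DG, those of rats R9781, R9865, R9870, R9875 and R9879. In rat R9781 the library labelled DG lay nearest CA3 and that labelled CA3 nearest DG in all 3 tables. Without the 5 CA3 libraries the CA3 means given below moved by more than 1.5 times for 3 genes, to 194 for Prox1, 57.9 for Dsp and 15.6 for Nhlh1. All libraries kept their labels and stayed in the comparison, and values without the 5 rats with such a CA1 or DG library (n = 29) are given where they matter.

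A gene was called when both poly-A tables gave the same direction and each passed 0.05 in limma after Benjamini-Hochberg adjustment. Of 13907 genes tested in both tables, 3739 (26.9%) were called, 1864 (13.4%) higher in CA1 and 1875 (13.5%) higher in DG. In the Illumina table alone, 7888 of 14179 genes (55.6%) passed. Differences were mostly small, since 169 of the genes higher in CA1 and 108 of those higher in DG had a log2 change of more than 1. In opposite directions in the 2 tables, 4 genes were called (53 without the rats that held an Illumina library of over 25 M recovered reads), namely Mrpl55 and Ndufb11 (mitochondrial proteins), Trappc2l (vesicle tethering) and Tubgcp2 (microtubule nucleation). Their Illumina changes lay between -0.09 and 0.13. Of the 3739 called genes, 3664 were also tested in the WT table and 3216 were called there in the same direction. Rats carried numbers under 9000 (5 young, 13 aged) or higher (5 young, 11 aged). The study's methods name 2 sites with different suppliers and the same numbers of young and aged rats, but no label ties a rat to a site. Calls made within each series are given in the closing section.

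**Figure D1:**
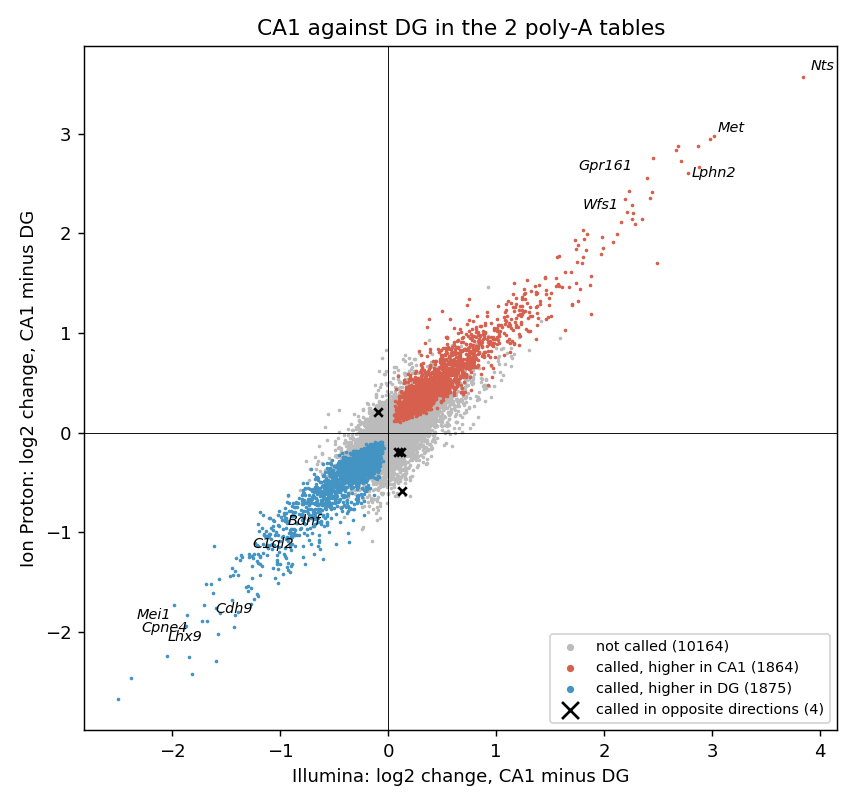
Log2 change between CA1 and DG for each gene tested in both poly-A tables, Illumina on the x axis and Ion Proton on the y axis. Genes called higher in CA1 (1864) are red, genes called higher in DG (1875) blue, genes not called grey, and the 4 called in opposite directions are black crosses. The largest change toward CA1, that of Nts, lay at 3.84 and 3.57.

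The ranges of the subfields overlapped for every gene when rats were pooled. Of 14179 genes tested in the Illumina table, 0 (0%) had all 34 CA1 libraries above all 34 DG libraries, and 0 (0%) the reverse. Without the 5 rats, 21 genes (0.148%) did not overlap with CA1 higher and 36 (0.254%) with DG higher. Leaving those rats out used marker genes, some of which are among these genes, so these counts are a description. Within rats, 10 genes were higher in CA1 and 19 higher in DG in all 34. Chgb, the granule protein secretogranin 1 of dense-core vesicles, was one of the 19. It ranged from 4686 to 8573 (median 6235) in CA1 and from 7769 to 14730.0 (median 11449) in DG, so that only the tails of the groups met, and its log2 change was -0.89 ± 0.09. Among the 10, Ptn (pleiotrophin, a secreted growth factor) ranged from 2174 to 4239.9 (median 3071) in CA1 and 1354 to 2615 (median 1805) in DG, with a log2 change of 0.77 ± 0.06. Chgb and Ptn were chosen after their values were seen.

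The markers differed in the direction of their names. The study had named all of them as specific to CA1 or DG from these data, so that direction was known beforehand. Wfs1 (ENSRNOG00000005108, chromosome 14) ranged from 1348 to 14868 (median 5849) in CA1 and from 337 to 5771 (median 1269.8) in DG. It was higher in CA1 in 32 of 34 rats, with a log2 change of 2.27 ± 0.22 and a limma adjusted p of 2.1e-15. Gpr161 (ENSRNOG00000003073, chromosome 13) ranged from 137 to 989.6 (median 595) in CA1 and 33.4 to 456 (median 101) in DG, a log2 change of 2.40 ± 0.19 with an adjusted p of 5.3e-20 in limma. For both, the groups overlapped in their tails, with rat R9869 lowest in CA1 and highest in DG.

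The DG markers overlapped more. C1ql2 (ENSRNOG00000046863, chromosome 13) ranged from 72.9 to 1320.5 (median 652) in CA1 and 146 to 2927 (median 1784) in DG, and was higher in DG in 29 of 34 rats, with a log2 change of -1.36 ± 0.28 and a limma adjusted p of 2.1e-05. Bdnf (ENSRNOG00000047466, chromosome 3) ranged from 126 to 652 (median 418) in CA1 and 339.6 to 1150.1 (median 799.6) in DG, a log2 change of -1.04 ± 0.12 with a limma adjusted p of 2.6e-12. The lowest C1ql2 value of DG, 146, belonged to rat R9781, and the lowest Bdnf value of DG, 339.6, to young rat R9881, a rat whose libraries were not among those nearer to another subfield. Without the 5 rats, which were picked by scores that include these genes, the log2 changes were 2.57 for Wfs1, 2.66 for Gpr161, -1.52 for C1ql2 and -1.13 for Bdnf. In the Ion Proton table they were 2.21 ± 0.22, 2.56 ± 0.20, -1.23 ± 0.31 and -1.0 ± 0.13 in the same order.

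**Figure D2:**
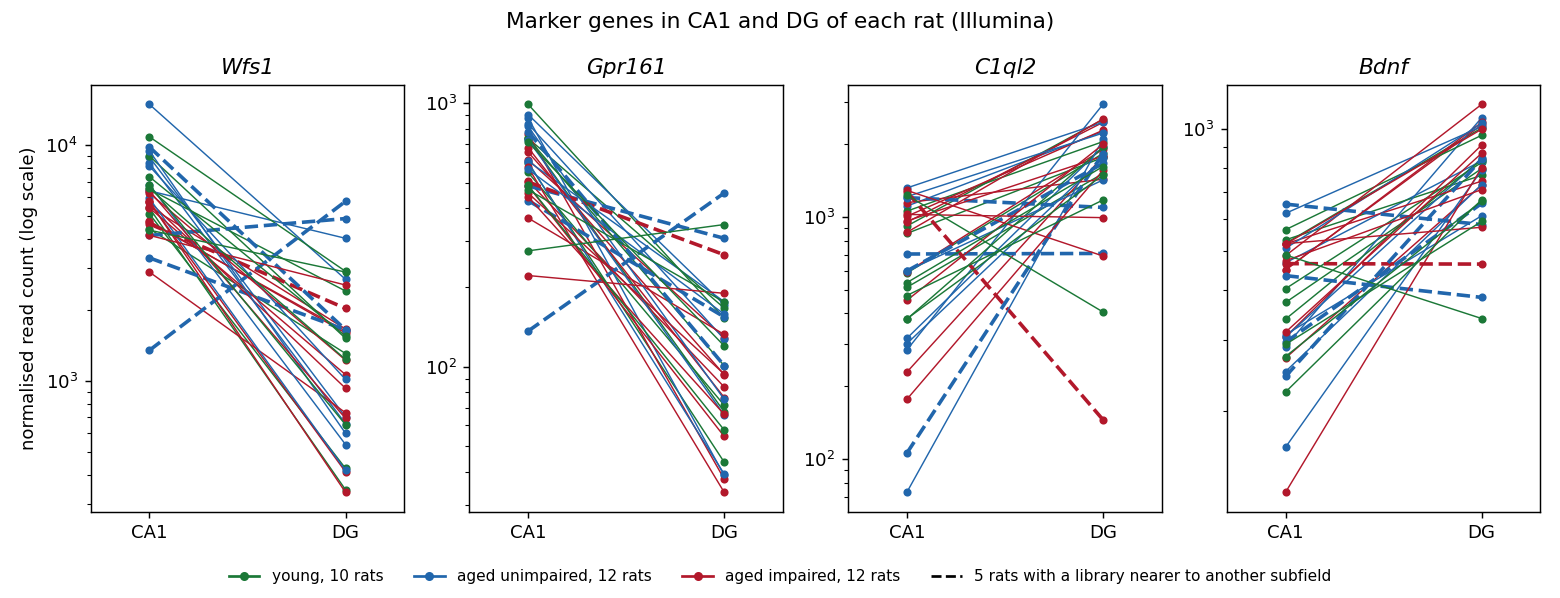
Normalised read counts (log scale) of 4 marker genes in the CA1 and DG libraries of each rat, joined by a line, green for young, blue for aged unimpaired and red for aged impaired rats. Dashed lines are the 5 rats with a library nearer to another subfield. Wfs1 and Gpr161 fell toward DG in 32 and 32 of 34 rats, and C1ql2 and Bdnf rose in 29 and 30.

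All 7 tested CA1 pyramidal markers were called higher in CA1 (median log2 change 2.27, against 0.00 over all tested genes). Of 10 dentate granule markers, 9 were called higher in DG (median -1.08). From these same libraries the study had named Wfs1, Gpr161, Nov and Ndst4 for CA1 and C1ql2, Bdnf, Dsp and Plk5 for DG. The direction of such members was known beforehand, so these counts are a description. CA1 libraries also held granule markers, 3 of which averaged more there than in CA3. Prox1, the transcription factor that fixes granule cell identity, averaged 507 ± 224 in CA1 and 1079 ± 362 in DG, beside 297 in CA3. Dsp (desmoplakin) averaged 217 ± 102 in CA1 and 460.4 ± 179.5 in DG, beside 91.7 in CA3, and C1ql2 averaged 728 ± 386 in CA1 and 1716 ± 629.7 in DG, beside 289 in CA3. The share of granule cell tissue in a CA1 piece was not tested. Of 8 markers of CA2 and CA3, 4 (50%, against 13.5% over all genes) were called higher in DG. Rgs14 (a signalling protein known for CA2) was called higher in CA1 (1 gene, 12.5%, no larger than the 13.4% over all genes). Grik4 (a kainate receptor subunit of mossy fibre synapses) averaged 796 ± 217 in CA1 and 1847 ± 361 in DG, beside 1729 in CA3.

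Nts, the precursor of the peptide neurotensin, had the largest log2 change toward CA1. It ranged from 78.5 to 978 (median 618) in CA1 and from 0 to 356 (median 73.9) in DG, with a log2 change of 3.84 ± 0.42 (limma adjusted p = 4.9e-13). Met (the receptor tyrosine kinase for hepatocyte growth factor) ranged from 26.2 to 625 (median 327) in CA1 and 5.61 to 178 (median 30.1) in DG. Its log2 change was 2.98 ± 0.24. Nts was also listed as a marker of the subiculum and cortex, and of the others on that list Slc17a6 (vesicular glutamate transporter 2, log2 change 1.38 ± 0.17) and Fn1 (fibronectin, 0.46 ± 0.14) were called higher in CA1, while Lamp5 (a lysosomal membrane protein of some cortical neurons, -1.29 ± 0.13) was called higher in DG. Rorb (0.30 ± 0.11) and Cux2 (0.14 ± 0.11) were not called. The amount of subicular tissue in the CA1 pieces was not tested.

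Lphn2 (latrophilin 2, an adhesion receptor placed at synapses) ranged from 428 to 1497 (median 1037) in CA1 and 33.6 to 754 (median 175) in DG, and did not overlap between the groups without the 5 rats. Nxph3 (neurexophilin 3, a secreted partner of neurexins) averaged 602 ± 365 in CA1 and 106 ± 160.1 in DG, a log2 change of 2.87 ± 0.37. Nov (a matricellular protein also named Ccn3) averaged 2448 ± 988 in CA1 and 485 ± 362 in DG, a log2 change of 2.44 ± 0.19. Lyzl4 (lysozyme-like 4), Ankrd63 (an ankyrin repeat protein) and the unnamed gene model AABR06039834.1 had log2 changes of 2.69 ± 0.22, 2.26 ± 0.18 and 3.02 ± 0.24. CA3 held intermediate mean levels of these genes, such as 429 for Lphn2, 133 for Met and 978 for Nov.

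Tmem72, also among the 12 largest with a log2 change of 2.43, was high in few libraries. Its mean was 116 ± 382 in CA1 and 3.31 ± 9.14 in DG, but its CA1 median was 7.67 and its highest CA1 values were 1537 in aged impaired rat R9870 and 1664 in aged unimpaired rat R9865. The same libraries held 143340.0 and 118480.0 reads of Ttr (transthyretin, the chief product of the choroid plexus), where the median CA1 library held 213.

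Genes higher in DG differed less. Mei1 (a gene known from meiosis) had the largest change among genes with a mean of at least 100. It ranged from 40.8 to 328 (median 139.7) in CA1 and 160.4 to 842 (median 469.9) in DG, with a log2 change of -1.86 ± 0.20 (limma adjusted p = 5.3e-14). Cdh9 (a cadherin of mossy fibre synapses) ranged from 69.0 to 634 (median 326) in CA1 and 318 to 1349 (median 1017) in DG and was higher in DG in 33 of 34 rats. Cpne4 (copine 4, a calcium-dependent membrane-binding protein) ranged from 420.5 to 3750.2 (median 1254) in CA1 and 1013 to 6237 (median 4754) in DG, again higher in DG in 33 of 34. Without the 5 rats the CA1 and DG libraries of Cdh9 and Cpne4 did not overlap.

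Npy2r (a neuropeptide Y receptor found on mossy fibre terminals) averaged 68.3 ± 33.1 in CA1 and 199 ± 60.6 in DG, and Nmb (the peptide neuromedin B) 43.8 ± 25.9 in CA1 and 108 ± 40.4 in DG. Col6a3 (collagen VI) and Svep1 (an extracellular matrix protein) had log2 changes of -1.68 ± 0.25 and -1.57 ± 0.23, and Cst6 (a protease inhibitor of the cystatin family) of -1.56 ± 0.14. Lhx9 and Nhlh1, both developmental transcription factors, had log2 changes of -1.57 ± 0.21 and -1.44 ± 0.39, Il16 (an interleukin precursor) of -1.44 ± 0.18 and the model LOC690918 of -1.60 ± 0.44. These genes differed in their level in CA3. Svep1, Nmb and Nhlh1 were low there, with means of 171, 26.6 and 39.3 beside 252, 43.8 and 131 in CA1. Cpne4, Npy2r and Lhx9 were near their DG level, with 3776, 238 and 117 in CA3 beside 4597, 199 and 124 in DG.

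Of 27 tested transcription factors of hippocampal neurons, 8 (29.6%) were called higher in CA1, 6 (22.2%) higher in DG and 13 were not called (median log2 change -0.04). The shares over all genes were 13.4% and 13.5%. The homeobox factors Meis2 and Meis1 were higher in CA1 with log2 changes of 1.23 ± 0.15 and 1.01 ± 0.14, and so was Fezf2 (a factor of deep-layer cortical neurons, 1.00 ± 0.12). On the DG side stood Nhlh1, Prox1 (-1.13 ± 0.19), Rfx3 (a factor for ciliary genes, -0.90 ± 0.14) and Neurod1 (a factor of young granule cells, -0.73 ± 0.10). Mki67, a gene of dividing cells, was also higher in DG with 114 ± 36.3 in CA1 and 191 ± 49.7 in DG. Yet of the 8 tested genes of newborn neurons and proliferation, 2 (25%) were higher in DG. Another 2 (25%), Igfbpl1 and Stmn1, were higher in CA1 (log2 changes of 0.88 ± 0.26 and 0.55 ± 0.08).

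Peptide precursors and receptors moved in both directions. Of 16 tested precursors, 6 (37.5%) were called higher in CA1 and 4 (25%) higher in DG, against 13.4% and 13.5% over all genes. Toward CA1, Tac1 (substance P precursor) had a log2 change of 1.21 ± 0.19, Vip of 1.17 ± 0.15 and Cck (cholecystokinin) of 0.95 ± 0.11. Toward DG, Pdyn (the dynorphin precursor of granule cells) ranged from 151 to 1938 (median 1069) in CA1 and 179.8 to 3944 (median 2299.8) in DG, a log2 change of -1.20 ± 0.26, and Penk (enkephalin precursor) changed by -0.54 ± 0.14. One CA1 library held 4959.8 Penk reads, where the CA1 median was 541. Of 26 tested peptide receptors, 6 (23.1%) were called higher in CA1 and 7 (26.9%) higher in DG. Somatostatin receptors split, since Sstr4 (0.75 ± 0.09) was higher in CA1 and Sstr3 (-0.78 ± 0.07) higher in DG. Tacr3, the neurokinin B receptor, was higher in CA1 (1.64 ± 0.28). Hcrtr2 (an orexin receptor, -1.22 ± 0.10), Trhr (the thyrotropin-releasing hormone receptor, -0.94 ± 0.28) and Npy5r (-0.69 ± 0.07) stood with Npy2r on the DG side.

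Receptors for monoamines and acetylcholine were called in both directions. Of 26 tested, 9 (34.6%, against 13.4% over all genes) were called higher in CA1, with log2 changes up to 2.46. Higher in DG were 7 (26.9%, against 13.5%), with changes down to -0.79. Drd5 (the dopamine D5 receptor) ranged from 7.51 to 98.0 (median 43.3) in CA1 and 0 to 42.6 (median 6.10) in DG. Htr1b (a serotonin receptor of axon terminals) averaged 183 ± 62.7 in CA1 and 46.7 ± 33.2 in DG, a log2 change of 2.23 ± 0.20. Htr2c averaged 1287 ± 741 in CA1 and 398 ± 402 in DG and Htr5b 326 ± 116 in CA1 and 94.6 ± 41.8 in DG, with log2 changes of 1.99 ± 0.24 and 1.76 ± 0.21. Chrna5 (a nicotinic subunit) changed by 1.74 ± 0.25. In the other direction, Htr1a (the serotonin 1A receptor) averaged 282 ± 82.9 in CA1 and 475 ± 107 in DG, a log2 change of -0.79 ± 0.10, and Chrna7 (the alpha-7 nicotinic receptor) changed by -0.73 ± 0.09 and Htr4 by -0.67 ± 0.13. Drd2 (the dopamine D2 receptor), also listed as a marker of hilar mossy cells, was higher in CA1 (1.36 ± 0.21). Of the 5 mossy cell markers, 3 (60%) were called higher in CA1 and 0 higher in DG (median 0.38).

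Of 77 tested potassium channel genes, 23 (29.9%) were called higher in DG and 16 (20.8%) higher in CA1, with a median log2 change of -0.06. The shares over all genes were 13.5% and 13.4%. Kcnq5, a subunit of the M-current, ranged from 296 to 1369.6 (median 549) in CA1 and 892 to 2063 (median 1378) in DG (log2 change -1.22 ± 0.14), and its CA3 mean was 1843. Kcnh8 (-1.27 ± 0.20) and Kcng1 (-0.97 ± 0.13) were also higher in DG, and Kcnk3 (a leak channel, 1.16 ± 0.15), Kcnh7 (1.14 ± 0.15) and Kcnf1 (a silent subunit, 1.13 ± 0.26) higher in CA1. Of 21 calcium channel genes, 5 (23.8%) were higher in DG, led by Cacna1c (the L-type channel Cav1.2), and 3 (14.3%, near the 13.4% over all genes) higher in CA1, led by the auxiliary subunit Cacna2d2 (0.88 ± 0.11). Cacna1c ranged from 275 to 981 (median 648) in CA1 and 676 to 1496 (median 1229) in DG, a log2 change of -0.95 ± 0.09. Of 11 sodium channel genes, 3 (27.3%) were called, all higher in DG, with Scn4a changing most (-0.60 ± 0.10).

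Among receptors for fast transmission, 5 of 12 GABA-A subunits (41.7%, against 13.5% over all genes) were higher in DG and 1 (8.33%, against 13.4%), Gabrg3 (0.47 ± 0.10), higher in CA1. Gabra2 had the largest change of these (-0.63 ± 0.07), with means of 1378 ± 262 in CA1 and 2114 ± 289.9 in DG, and Gabra5, the subunit of extrasynaptic receptors, changed by -0.43 ± 0.09. Of 16 ionotropic glutamate receptor genes, the kainate subunits Grik4 (-1.23 ± 0.13) and Grik2 (-0.56 ± 0.05) were higher in DG (12.5% of the list, a share no larger than over all genes), while Grin3a (an NMDA receptor subunit, 1.12 ± 0.14), Grik1 (0.70 ± 0.08), Grin2c and Grin2d were higher in CA1 (25%). None of the AMPA receptor subunit genes, Gria1 to Gria4, was called in both tables by limma, with Illumina changes between -0.21 (Gria1) and 0.18 (Gria3). Of 8 metabotropic receptors, 3 (37.5%) were called higher in CA1, led by Grm8 (1.16 ± 0.28), and 2 (25%) higher in DG.

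Calcium release channels differed in both directions. Ryr2, the ryanodine receptor, ranged from 2340.3 to 7519.5 (median 5177) in CA1 and 5297 to 13520.0 (median 10529) in DG, with a log2 change of -0.98 ± 0.10 and 31 of 34 rats higher in DG. Itpr1, the receptor for inositol trisphosphate, ranged from 5292 to 12746 (median 9057) in CA1 and 3652 to 8846 (median 5154) in DG, with a log2 change of 0.76 ± 0.07 and 33 of 34 higher in CA1. S100a10 (a small calcium-binding family member, 1.46 ± 0.11) had the largest change of the 24 buffer, store and pump genes. Of these, 7 (29.2%) were called higher in CA1 and 5 (20.8%) higher in DG, against 13.4% and 13.5% over all genes. Calb1 (calbindin) averaged 1140.1 ± 386 in CA1 and 1110.1 ± 293 in DG and was not called. Of 18 calcium-dependent kinase and phosphatase genes, 7 (38.9%) were higher in DG, led by the kinase kinases Camkk1 (-0.72 ± 0.08) and Camkk2 (-0.56 ± 0.06) and by Prkce (-0.66 ± 0.09). Higher in CA1 were 3 (16.7%, near the 13.4% over all genes), Prkcd (0.78 ± 0.20), Camk2d (0.61 ± 0.15) and Prkcb (0.54 ± 0.05).

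Axon guidance and adhesion genes were called in both directions. Semaphorins, which are mostly repulsive ligands, were called higher in CA1 for 8 of 20 genes (40%, against 13.4% over all genes). Higher in DG were 2 (10%, no more than the 13.5% over all genes). Sema3a averaged 25.9 ± 15.9 in CA1 and 10.3 ± 13.6 in DG and Sema3f 62.3 ± 36.0 in CA1 and 26.8 ± 25.7 in DG, with log2 changes of 1.46 ± 0.27 and 1.32 ± 0.23. The 2 higher in DG were Sema3c (-1.19 ± 0.16) and Sema5a (-1.02 ± 0.14). Of their 10 receptors, 5 (50%) were higher in DG, among them both neuropilins, and 3 (30%) higher in CA1. Nrp2 ranged from 190.1 to 797 (median 476) in CA1 and 374 to 1364 (median 1069.5) in DG, a log2 change of -1.20 ± 0.14, and Nrp1 changed by -0.67 ± 0.09. Plxnd1 went the other way, ranging from 461 to 933 (median 698) in CA1 and 137 to 935 (median 221) in DG (1.45 ± 0.13).

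Of 9 Slit and netrin genes, 3 (33.3%, against 13.5% over all genes) were higher in DG and 1 (11.1%, against 13.4%), Ntn4 (0.57 ± 0.09), higher in CA1. Slit2 ranged from 273 to 1158 (median 531) in CA1 and 418 to 1626 (median 1248) in DG, a log2 change of -1.19 ± 0.12, and was as high in CA3 as in DG, with means of 1298 and 1212. Slit1 changed by -0.72 ± 0.09 and Ntng2 (netrin G2) by -0.54 ± 0.09. Among the receptors for these ligands, 5 of 9 (55.6%) were higher in DG, namely Unc5d (-1.25 ± 0.16), Dcc (-0.80 ± 0.09), Unc5c (-0.77 ± 0.09), Unc5a and Robo2. Unc5b (0.52 ± 0.10) was higher in CA1 (1 of 9, 11.1%). Ephrins were called higher in CA1 for 3 of 7 genes (42.9%, against 13.4% over all genes) and in DG for 0. Of 13 Eph receptors, 5 (38.5%) were higher in DG, all of the A class but 1, with Epha8 (-1.05 ± 0.19) and Epha7 (-0.63 ± 0.13) in front. Higher in CA1 were 3 (23.1%), among them Ephb3 (0.76 ± 0.08).

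Classical cadherins were higher in CA1 for 8 of 20 genes (40%, against 13.4% over all genes). Higher in DG were 4 (20%, against 13.5%). Cdh6 averaged 190.2 ± 47.7 in CA1 and 96.9 ± 45.4 in DG (log2 change 1.03 ± 0.10), and Cdh22 changed by 0.75 ± 0.09. Cdh9 and Cdh12 (-0.81 ± 0.11) led the DG side. Of 11 protocadherins, Pcdh19 (-0.69 ± 0.12), Pcdh20 (-0.65 ± 0.11) and Pcdh8 (-0.52 ± 0.09) were higher in DG (3 genes, 27.3%). Pcdh10 (0.28 ± 0.05) was higher in CA1 (1 gene, 9.09%). Among 26 synaptic organisers, 6 (23.1%) were higher in DG and 3 (11.5%) higher in CA1, against 13.5% and 13.4% over all genes tested. Beside C1ql2, Lrrtm4 (a postsynaptic leucine-rich repeat protein, -0.53 ± 0.11) and Nlgn1 (neuroligin 1, -0.40 ± 0.06) were higher in DG, and Cbln2 (cerebellin 2, 1.24 ± 0.17) was higher in CA1, with 279.8 ± 136 in CA1 and 113 ± 67.0 in DG. Of 15 Wnt genes, Wnt2 (1.28 ± 0.15) and Wnt9a (0.25 ± 0.08, past the Illumina test in neither young nor aged rats alone) were higher in CA1 and Wnt4 (-0.67 ± 0.11) higher in DG, shares of 13.3% and 6.67% that were no larger than those over all genes tested. Fzd7, a Wnt receptor, had the largest change of the Frizzled receptors and secreted inhibitors, with a range of 26.2 to 124 (median 68.5) in CA1 and 1.14 to 59.9 (median 12.3) in DG (log2 change 2.29 ± 0.20).

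Bdnf was not alone among neurotrophins. Ntf3 (neurotrophin 3) averaged 91.1 ± 36.3 in CA1 and 162 ± 49.3 in DG, a log2 change of -0.86 ± 0.15, and its receptor Ntrk3 averaged 702 ± 116 in CA1 and 982 ± 155 in DG, a log2 change of -0.49 ± 0.06, both higher in DG. Ntrk2, the receptor of Bdnf, was not called (0.11 ± 0.05), but was called higher in CA1 with the rat as a block, and Ngfr, the low-affinity receptor, was higher in CA1 (0.91 ± 0.22). That made 3 of 8 genes (37.5%) higher in DG and 1 (12.5%, near the 13.4% over all genes) higher in CA1.

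Activity-dependent early genes are transcribed within minutes of synaptic activity, many of them through the factors CREB and SRF. Tissue was taken weeks after maze testing, and a link of these genes to the maze was not tested. Of 19 tested, 9 (47.4%) were called higher in CA1 and 3 (15.8%) higher in DG, with a median log2 change of 0.51. Over all tested genes the shares were 13.4% and 13.5%, so the share higher in DG was near that of all genes. The 250 bases before the RefSeq start of 4 of them are shown, which are, of the called genes with such a window, the 3 with the largest changes toward CA1 and the 1 called higher in DG. They are given 5′ to 3′ in build GRCr8, which is not the build of the counts. Capitals mark TGACG on either strand (read as CGTCA on the other) and the CArG box, which stood once, before Egr2. The longer form TGACGTCA is in none of these windows.
Nr4a1: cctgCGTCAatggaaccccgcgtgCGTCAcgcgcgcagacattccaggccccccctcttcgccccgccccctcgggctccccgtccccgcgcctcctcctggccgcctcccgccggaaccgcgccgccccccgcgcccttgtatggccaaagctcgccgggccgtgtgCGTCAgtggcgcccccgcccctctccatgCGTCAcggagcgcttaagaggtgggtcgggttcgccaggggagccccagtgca
Egr2: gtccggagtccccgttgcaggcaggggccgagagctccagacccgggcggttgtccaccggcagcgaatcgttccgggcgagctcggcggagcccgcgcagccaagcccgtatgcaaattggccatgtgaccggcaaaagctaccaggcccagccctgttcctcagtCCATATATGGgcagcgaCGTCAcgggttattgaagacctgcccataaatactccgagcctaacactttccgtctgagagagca
Nr4a2: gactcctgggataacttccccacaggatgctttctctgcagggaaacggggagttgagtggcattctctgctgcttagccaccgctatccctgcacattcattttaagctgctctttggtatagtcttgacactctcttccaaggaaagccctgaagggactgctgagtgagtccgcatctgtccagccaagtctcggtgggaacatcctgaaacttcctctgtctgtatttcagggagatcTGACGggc
Ptgs2: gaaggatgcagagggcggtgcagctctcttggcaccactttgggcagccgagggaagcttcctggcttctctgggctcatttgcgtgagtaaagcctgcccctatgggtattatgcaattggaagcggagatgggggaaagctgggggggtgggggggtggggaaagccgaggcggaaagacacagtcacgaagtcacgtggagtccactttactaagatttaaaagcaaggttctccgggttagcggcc
The windows lie at chr7:134259888-134260137 on the plus strand for Nr4a1, at chr20:21054442-21054691 on the minus strand for Egr2, at chr3:62104888-62105137 on the minus strand for Nr4a2 and at chr13:64713813-64714062 on the plus strand for Ptgs2. TGACG was found 4 times before Nr4a1, 1 time before Egr2, 1 time before Nr4a2 and 0 times before Ptgs2. Of 33360 different windows of 250 bases, 18.2% held TGACG, 1.59% TGACGTCA and 1.5% a CArG box. A window was found for 14 of the 19 genes. TGACG stood in all 7 of those called higher in CA1, in 0 of the 1 called higher in DG (Ptgs2) and in 2 of the 6 not called. A match describes the letters of a window and is no evidence of a site in use.

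Nr4a1 (an orphan nuclear receptor) ranged from 346 to 1400.5 (median 764) in CA1 and from 195 to 768 (median 316) in DG. It was higher in CA1 in 32 of 34 rats, with a log2 change of 1.13 ± 0.10 and a limma adjusted p of 1.2e-16. Arc, whose product acts at synapses on AMPA receptors, averaged 1704 ± 554 in CA1 and 849 ± 303 in DG, with 32 of 34 rats higher in CA1 and a log2 change of 1.01 ± 0.11. Egr2, a zinc finger factor, averaged 40.0 ± 24.4 in CA1 and 17.9 ± 10.3 in DG and changed by 1.1 ± 0.25. Dusp1 (a phosphatase of MAP kinases, 0.74 ± 0.11), Nr4a2 (0.80 ± 0.12), Egr1 (0.64 ± 0.09), Egr4 (0.59 ± 0.08), Fos (0.51 ± 0.18) and Junb (0.41 ± 0.07) were also higher in CA1.

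Ptgs2 (cyclooxygenase 2) ran against these genes. It ranged from 165 to 634 (median 404) in CA1 and 387 to 1184 (median 869) in DG, and was higher in DG in 31 of 34 rats, with a log2 change of -1.12 ± 0.13 and a limma adjusted p of 1.1e-11. Jun (-0.66 ± 0.06) and Nr4a3 (-0.53 ± 0.07) were higher in DG as well. Nr4a1 and Nr4a3, which are closely related receptors, thus differed in opposite directions. Without the 5 rats the changes were 1.28 for Nr4a1, 1.13 for Arc, -1.22 for Ptgs2 and -0.56 for Nr4a3. Npas4 (0.77 ± 0.23) and Homer1 (0.33 ± 0.05) passed in the Illumina table but not in the Ion Proton table.

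**Figure D3:**
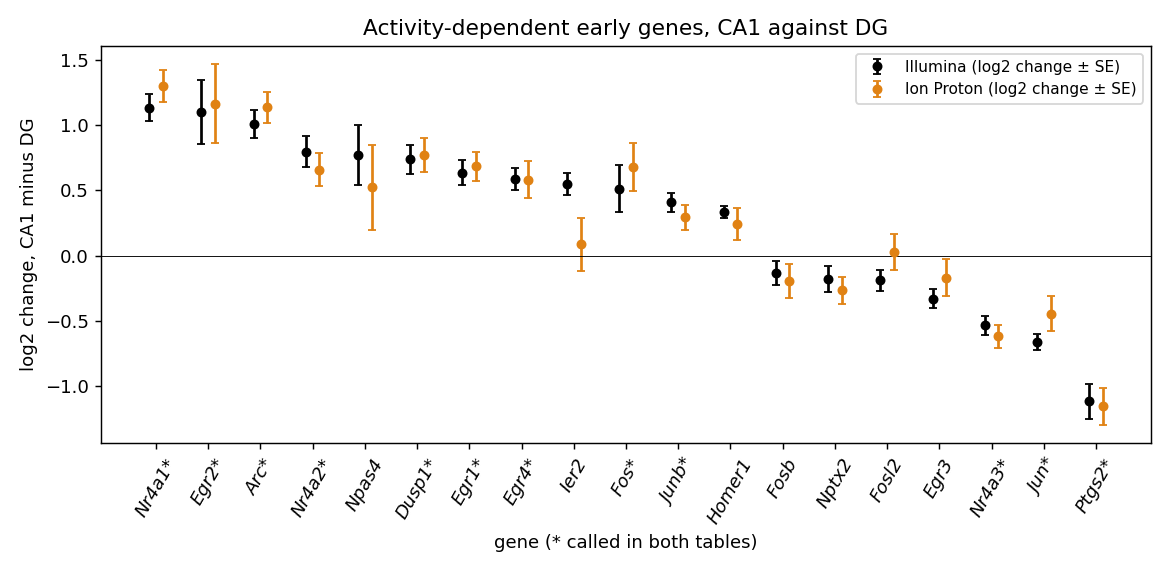
Log2 change between CA1 and DG (with SE) of 19 activity-dependent early genes in the Illumina (black) and Ion Proton (orange) tables, in the order of the Illumina change. Genes with an asterisk were called in both tables, 9 above 0 (higher in CA1) and 3 below it, and Nr4a1 and Ptgs2 mark the ends at 1.13 and -1.12.

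In the lists of glial, vascular and interneuron markers, every gene called in limma was higher in CA1, though for astrocytes and ependyma the share called was near that over all genes. Their part in the differences of other genes was not tested. All 12 oligodendrocyte markers were called higher in CA1, with log2 changes of 0.56 to 0.89, a median of 0.71 and a summed level of 80836 to 310970.0 in CA1 and 48537 to 234950.0 in DG. The sum was higher in CA1 in 32 of 34 rats. Mbp (myelin basic protein) averaged 78341 ± 29057 in CA1 and 45465 ± 24118 in DG, a log2 change of 0.87 ± 0.14, and Opalin, a myelin membrane protein, averaged 2122 ± 513 in CA1 and 1194 ± 495 in DG (0.89 ± 0.13). Of 7 oligodendrocyte precursor markers, 6 were higher in CA1, with Sox10 changing most (0.61 ± 0.10). Tissue from the alveus was not measured apart.

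Of 8 endothelial markers, 5 were higher in CA1, such as Cldn5 of tight junctions (0.47 ± 0.09), with summed levels of 2018 to 6358 in CA1 and 974 to 3735 in DG. Of 12 microglia markers, 3 were higher in CA1, P2ry12 (0.35 ± 0.06), Tmem119 (0.32 ± 0.06) and Csf1r (0.28 ± 0.05), and of 10 astrocyte markers 1 (10%, against 13.4% over all genes), Aldoc (0.27 ± 0.05). Of 11 interneuron markers, 5 were higher in CA1, led by Vip and by Pvalb (parvalbumin, 0.72 ± 0.08), and their sum ranged from 9078 to 18972 in CA1 and 7918 to 15863 in DG. None of these lists had a gene called higher in DG in limma. Leptomeninges (3 of 8, led by Dcn, decorin, 1.37 ± 0.21), blood (3 of 5) and ependyma (1 of 7, 14.3%) markers likewise had genes called higher in CA1 and 0 called higher in DG.

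Choroid plexus markers spread widely among libraries. Of 7 tested, Folr1 (1.29 ± 0.43) and Kl (klotho, 1.18 ± 0.49) were called higher in CA1. The sizes depended on the method, with 2.98 for Folr1 and 4.91 for Kl in edgeR. The Illumina call of Kl was lost under 6 alternatives, with a log2 change of 1.01 without the 5 rats, 1.24 with a pseudocount of 0.1, 0.92 with quantile normalisation, 0.43 in rats below 9000 and 0.33 in young rats, and also with no filter on low values. That of Folr1 was lost in young rats alone and in rats from 9000 up. Their summed level ranged from 30.5 to 154560.0 in CA1 and 31.1 to 3941 in DG, with medians of 304 and 184, and was higher in CA1 in 24 of 34 rats. Ttr reached 143340.0, 118480.0 and 20869 in the CA1 libraries of rats R9870, R9865 and R9862, and 3439.9 in the highest DG library, that of rat R9881. In the remaining 31 CA1 libraries the mean of Tmem72 was 13.2 ± 22.8 and that of Folr1 17.9 ± 23.2, a value set after the data were seen.

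**Figure D4:**
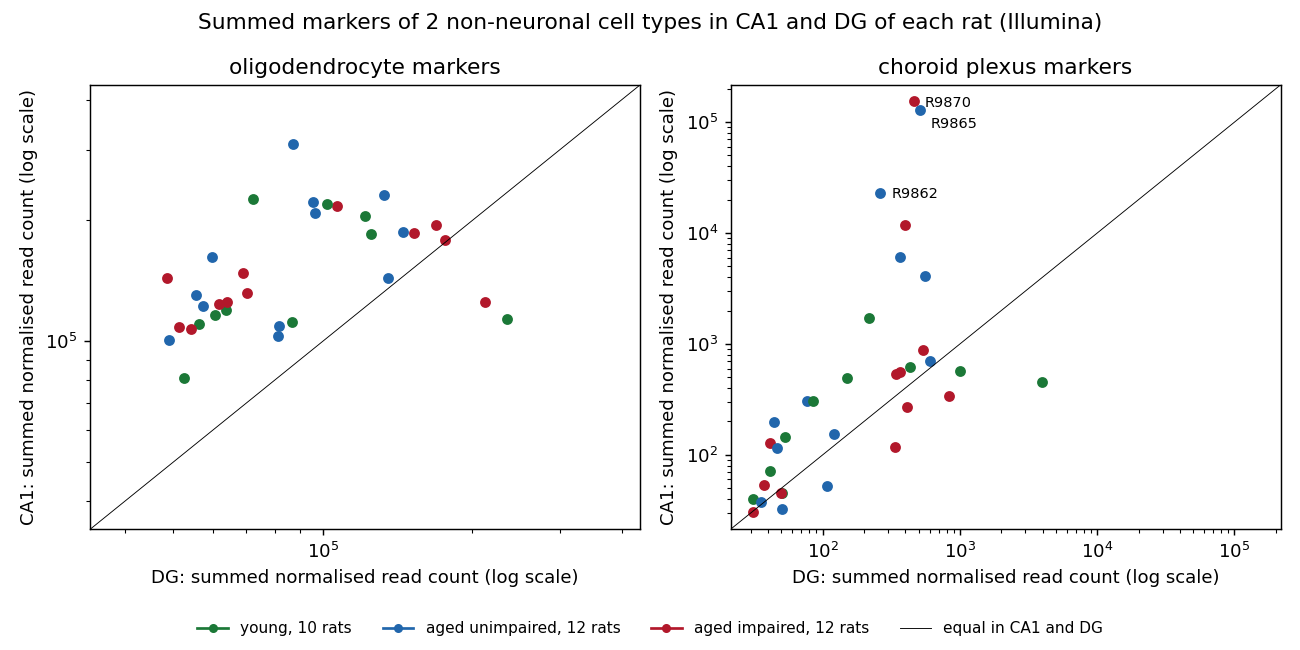
Summed normalised read counts (log scale) of 12 oligodendrocyte markers (left) and of the choroid plexus markers (right) in the DG library (x axis) and CA1 library (y axis) of each rat, coloured by group, with a line where both are equal. The oligodendrocyte sum lay above the line in 32 of 34 rats. The choroid plexus sum did so in 24, and 3 CA1 libraries (rats R9870, R9865 and R9862) held more than 20000 Ttr reads.

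**Figure D5:**
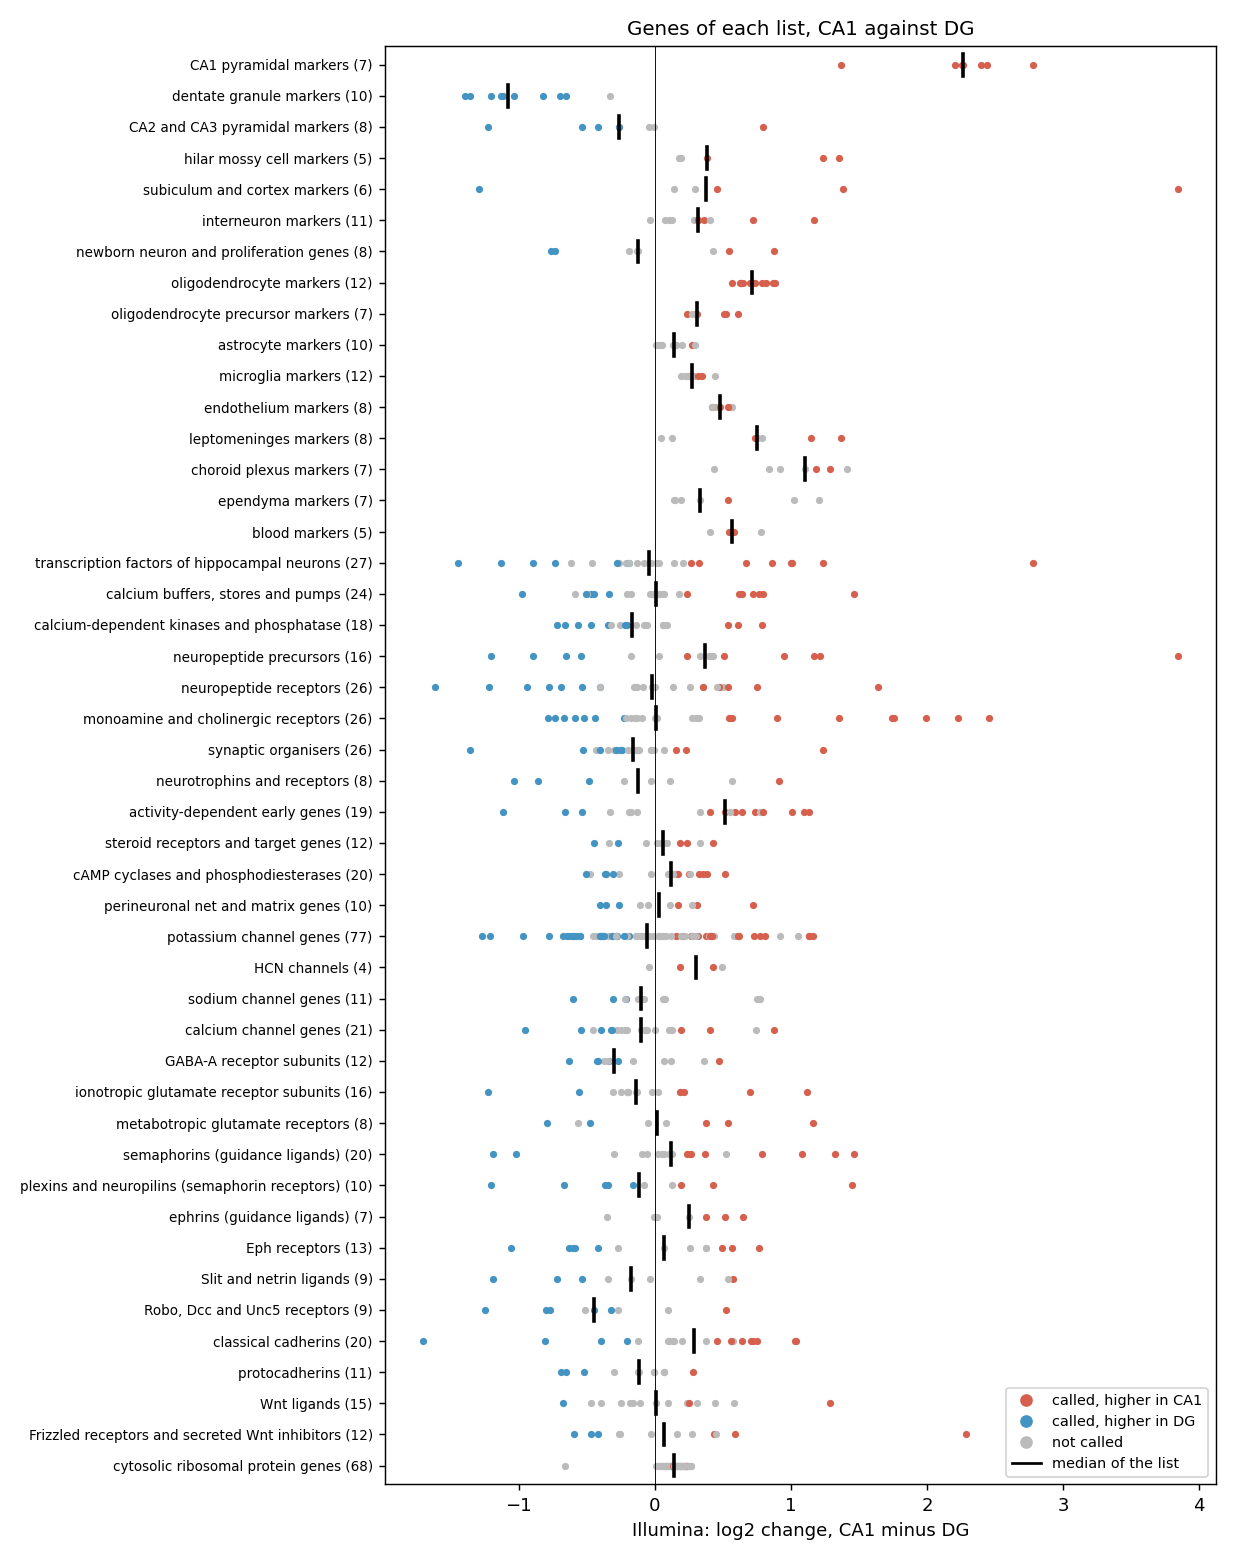
Illumina log2 change between CA1 and DG of each tested gene of each list, with the number of tested genes in brackets and the list's median as a black bar. Red points were called higher in CA1, blue points higher in DG and grey points were not called. The granule markers lay below 0, and CA1 pyramidal markers and the 12 oligodendrocyte markers above it.

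The comparison also asked whether the difference between CA1 and DG itself changed with age or with maze class. For each rat the log2 difference between its CA1 and DG libraries was taken and tested with limma across rats. Between aged (n = 24) and young (n = 10) rats, 0 of 14130 genes (0%) passed an adjusted p of 0.05, and 128 (0.906%) had an unadjusted p under 0.05. With the Ion Proton data, 0 passed and 362 of 15202 had an unadjusted p under 0.05. The mean difference of Wfs1 was 2.38 ± 1.04 (SD, n = 10) in young, 2.18 ± 1.94 (n = 12) in aged unimpaired and 2.26 ± 1.03 (n = 12) in aged impaired rats. That of Bdnf was -0.90 ± 0.58, -1.11 ± 0.75 and -1.08 ± 0.72 in the same order, that of C1ql2 -1.23 ± 1.08, -1.90 ± 1.59 and -0.93 ± 1.72, and that of Gpr161 2.44 ± 1.17, 2.27 ± 1.67 and 2.49 ± 1.19. For each of these 4 markers the group means differed by less than 1 SD of the aged unimpaired rats. Dok2, an adaptor of receptor tyrosine kinases named after its values were seen, had a difference of 0.61 ± 0.42 in young, 0.05 ± 0.40 in aged unimpaired and -0.09 ± 0.39 in aged impaired rats. Aged minus young it was -0.64 ± 0.16 with a limma adjusted p of 1.0, and -0.09 ± 0.55 in the Ion Proton table.

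Between aged impaired and aged unimpaired rats, 0 of 14130 genes (0%) passed, and 1061 (7.51%) had an unadjusted p under 0.05. Without the 5 rats 761 of 14118 (5.39%) did, and with the Ion Proton data 444 of 15215 (2.92%). The gene with the smallest p was Ntng1 (netrin G1, a membrane-bound ligand of presynaptic axons), chosen after its values were seen. Its CA1 minus DG difference ranged from -1.37 to -0.00477 (median -0.61) in the 12 unimpaired rats, from -0.25 to 1.26 (median 0.27) in the 12 impaired rats and from -1.08 to 0.69 in the 10 young rats. Ntng1 was thus higher in DG in all unimpaired rats, and the impaired rats lay on both sides of 0. The difference between the 2 classes was 0.88 ± 0.16 with a limma adjusted p of 0.076, which did not pass. Without the 5 rats it was 0.76 with a limma adjusted p of 0.033, the only gene to pass there. The rats left out were aged unimpaired except R9781, so the exclusion fell unevenly on the 2 classes. In the Ion Proton table the Ntng1 difference between the classes was 0.95 ± 0.23 with a limma adjusted p of 0.79, and 0 genes passed.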

How the data were processed

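Total RNA of hand-dissected CA1, CA3 and DG of 34 rats had been sequenced in 102 libraries. Per the labels and methods, the Illumina libraries were trimmed with cutadapt 1.8.3, aligned with STAR 2.5 to rn5 and counted with featureCounts 1.4.4, and the Ion Proton reads were aligned with TopHat2 and Bowtie2. The aligner, counter and library type of the WT table are not given in the sources used here, nor whether counting used strand, so reads of overlapping genes cannot be told apart. The deposited values (unit signal) are gene counts that the authors divided by a DESeq2 size factor per library. Whole reads were recovered for 100% of values in each table (tolerance 0.001). Every column of values matched a sample (0 did not).

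Values were taken as log2(value + 1). Genes averaging 10 or more were fitted with limma 3.58.1 (R 4.3.3, trend) over the 3 subfields, and the contrast CA1 minus DG was adjusted by Benjamini-Hochberg. The 37 mitochondrial chromosome genes are at 0 in the Ion Proton table and were not tested. Age and maze differences were tested on the log2 differences of each rat. Replicates were separate rats, and both libraries of a rat share its number in the labels. Deviations of the libraries of a rat correlated at a median of 0.24 (lowest -0.36, highest 0.61, above 0.1 in 26 of 34). The fits were tested on simulated data. Alternatives were edgeR 4.0.16 and DESeq2 1.42.0 on recovered reads, other scalings, filters and pseudocounts, a block on the rat, and subsets of rats. Gene lists are described by counts and medians, with no set test.

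Named genes were the 12 largest changes in each direction among called genes that averaged 100 or more in the higher subfield, the 4 markers, genes called in opposite directions and, from each list, up to 6 called members with the largest changes, up to 3 of the minority direction and any member of a list of at most 12. Calb1, Egr1, Egr4, Fos, Junb, Homer1, Npas4, Npy5r, Penk, Ptn, Ntng1 and the Gria genes are outside the rule or were named after their values were seen. The members and lists were chosen with earlier results of these data known. Promoter windows are from RefSeq (GRCr8). Some genes that meet the rule are not reported here.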

Additional observations from a re-analysis of the deposited data

Results flagged for a closer look

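In 1 of the 10 young rats, number R9881, the CA1 minus DG difference stood apart from the other 9 for 4 of 26 genes checked, by the gap to the nearest rat divided by the range. Chance gives about 1 such result in 20 groups. The difference was 1.60 for C1ql2, where the median of the young rats was -1.51, and 0.52 for Bdnf (median -1.02). It was 1.24 for Svep1 (median -1.39) and 2.23 for Nhlh1 (median -1.43). All 4 genes were higher in CA1 than in DG in this rat and are higher in DG in the group. Its DG library lay nearest to DG in both poly-A tables and nearest to CA3 in the WT table. Its granule marker score was -0.26, the lowest but 1 of the DG libraries, and its CA2/CA3 score 0.59. Its summed oligodendrocyte markers were 234950.0, the highest of the DG libraries, beside 113540.0 in its CA1 library, and it held 3439.9 Ttr reads, the highest of the DG libraries. Their part in the result was not tested.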

How the results depend on the processing

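Of the 1864 calls higher in CA1 and 1875 higher in DG, rats numbered below 9000 gave 1104 and 1072, young rats alone 536 and 521 and aged rats alone 1210 and 1225. Young and aged rats alone are smaller sets, and for the rats below 9000 the cause was not tested. The Illumina table alone gave 4106 and 3782 and the WT table alone 3207 and 3064, where no further table had to pass, and retesting in the WT table in place of Ion Proton gave 2827 in CA1. The rats numbered from 9000 up gave 1462 and 1451, and the other alternatives 1639 to 2655 in a direction. Genes called in opposite directions in the 2 poly-A tables numbered 4, and 9 with the block on the rat, 14 with quantile normalisation, 25 with edgeR, 25 with DESeq2, 31 in rats from 9000 up, 53 without the deeply sequenced rats (those with an Illumina library of over 25 M reads) and 0 to 11 under the others. The cause was not tested. The block on the rat, which pairs both libraries of an animal, gave 2077 and 2065, lost 13 calls in CA1 and 15 in DG, and added Ntrk2 among the named genes. For aged impaired against aged unimpaired rats, 1 gene passed without the 5 rats with a library nearer to another subfield, against 0 with all. Scalings moved the median of all genes by less than 0.1. Of the genes followed one by one, the Illumina test was lost by 41 in young rats, 23 in rats from 9000 up, 7 in rats below 9000, 6 with quantile normalisation, 5 in aged rats, 3 without the filter, 3 without the deeply sequenced rats and 1 each with a pseudocount of 0.1, scaling to library totals, edgeR and without the 5 rats. Among genes called here, these included Fos, Grin2d and Kl with quantile normalisation and Grin2d and Wnt9a in aged rats. Kl was also lost with a pseudocount of 0.1, without the filter and without the 5 rats. Grin2c, Kl and Trhr were among those lost in rats below 9000, and Epha8, Fn1, Folr1, Fos, Gabrg3, Grin2d, Igfbpl1, Ngfr, Nhlh1, Pcdh10, Pde1c, Pde7b, Penk, Prkcd and Tacr3 among those lost in rats from 9000 up. Signs turned for genes near 0 that were not called. Cux2 was -0.0244 in rats below 9000. Gria4 was 0.00793 in rats below 9000, 6.6e-04 without the deeply sequenced rats, 0.0458 in young rats and 0.0115 without the 5 rats. Calb1 was 0.0148 with quantile normalisation, 0.0242 with edgeR, 0.0392 with DESeq2, 0.193 in rats below 9000 and 0.00650 in aged rats.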

Other observations

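Of 20 cAMP cyclases and phosphodiesterases, 7 (35%, against 13.4% over all genes) were called higher in CA1, led by Pde1c (0.52 ± 0.12). Higher in DG were 4 (20%, against 13.5%), led by Pde7b (-0.50 ± 0.13). Of 12 steroid receptors and target genes, 3 (25%) were higher in CA1. Higher in DG were 2 (16.7%, near the 13.5% over all genes), such as Fkbp5, a chaperone of steroid receptors (-0.45 ± 0.07). Of 10 perineuronal net and matrix genes, 3 (30%) were called in each direction, with Hapln2 of myelinated axons at 0.72 ± 0.13 and Acan (aggrecan) at -0.36 ± 0.07. Of 68 cytosolic ribosomal protein genes, 6 (8.82%, against 13.4% over all genes) were called, all higher in CA1, with a median log2 change of 0.14 over the list in the Illumina table. Of 12 Frizzled receptors and secreted Wnt inhibitors, 3 (25%) were called in each direction.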
